A study of Mus musculus with 9 samples.

Results

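Small intestinal epithelial cells sorted for high surface MHC class II (MHCIIhi) were compared with cells sorted for intermediate surface MHC class II (MHCIIlo), using the 6 intestinal arrays, 3 per group, of the 9 arrays in the series. The other 3 arrays held kidney epithelium and were left out. All mice were of the C57BL/6 strain background, and the labels used here give no age, treatment or transgene. Small intestines were opened, emptied and minced, and the cells that EDTA released were stained for Epcam, an adhesion molecule of epithelial cells, for MHC class II and for CD45, the common leukocyte surface protein. The MHCIIhi gate took cells high for both Epcam and MHC class II, and the MHCIIlo gate took cells intermediate for both. Cells positive for CD45 or for the dead-cell stain Fluorogold were left out of both gates. Each replicate was a pool of cells from 3 mice, so that spread between single mice was not measured. RNA was read on single-colour Agilent arrays, and arrays were assigned to groups by their titles. The comparison asked which transcripts differ between epithelium with high and with lower surface class II.

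The small intestinal epithelium renews itself from stem cells at the base of crypts. Their progeny divide in the crypt, stop dividing as they move onto the villus, and become absorptive enterocytes or secretory cells, which are Paneth, goblet, enteroendocrine and tuft cells. Wnt and Notch signals and the transcription factor Myc act in the crypt, whereas BMP and hedgehog signals act along the villus. MHC class II molecules, which present peptides to helper T cells, are made by intestinal epithelium under control of the transactivator Ciita, and the amount at the surface depends on synthesis, peptide loading and transport as well as on transcript level.

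A level is the processed signal on a log2 scale, set relative to the 75th percentile of its own array, so a level of 0 equals that percentile, and levels of different genes are not set against each other. A difference is the MHCIIhi mean minus the MHCIIlo mean, given as a log2 value ± SE, and its p comes from limma, adjusted by Benjamini-Hochberg over all probes. A gene was called at an adjusted p below 0.05 together with an absolute log2 difference of at least 1, and was represented by its probe with the highest mean. By this rule 5457 of 16500 genes tested were called (33.1%), with 2805 (17%) higher and 2652 (16.1%) lower in MHCIIhi. The groups did not overlap for 10179 genes (61.7%), so a call or a gap between groups is common here and counts of list members are read against these shares. The median difference of all genes tested was -0.15. MHCIIhi 1 and 2 lay on 1 slide, and MHCIIhi 3 shared another slide and scan with the 3 MHCIIlo arrays. Slide and group are thus partly confounded, and the difference between MHCIIhi 3 and the 3 MHCIIlo arrays is called the within-slide difference below. With slide as a block, 819 of 16493 genes were called (4.97%), 680 higher (4.12%) and 139 lower (0.843%), a fit whose only contrast between groups is that 1 MHCIIhi array. All 5457 called genes kept their sign within the slide, and the within-slide difference was smaller than the full one for 5137 of them. The kept sign is largely built into a call, since MHCIIhi 3 and the MHCIIlo arrays are also part of the full difference. It is therefore no check on slide. The arrays' 75th percentile signal ran from 213 to 371 in MHCIIhi and from 100.6 to 185 in MHCIIlo, and spots well above background made up 60.9 to 64.7% and 51.0 to 57.3%. Weak genes were therefore measured less often in MHCIIlo. A gene below background on all MHCIIlo arrays is given only as a lower bound of its fold, against the lowest well-measured signal of those arrays.

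**Figure D1:**
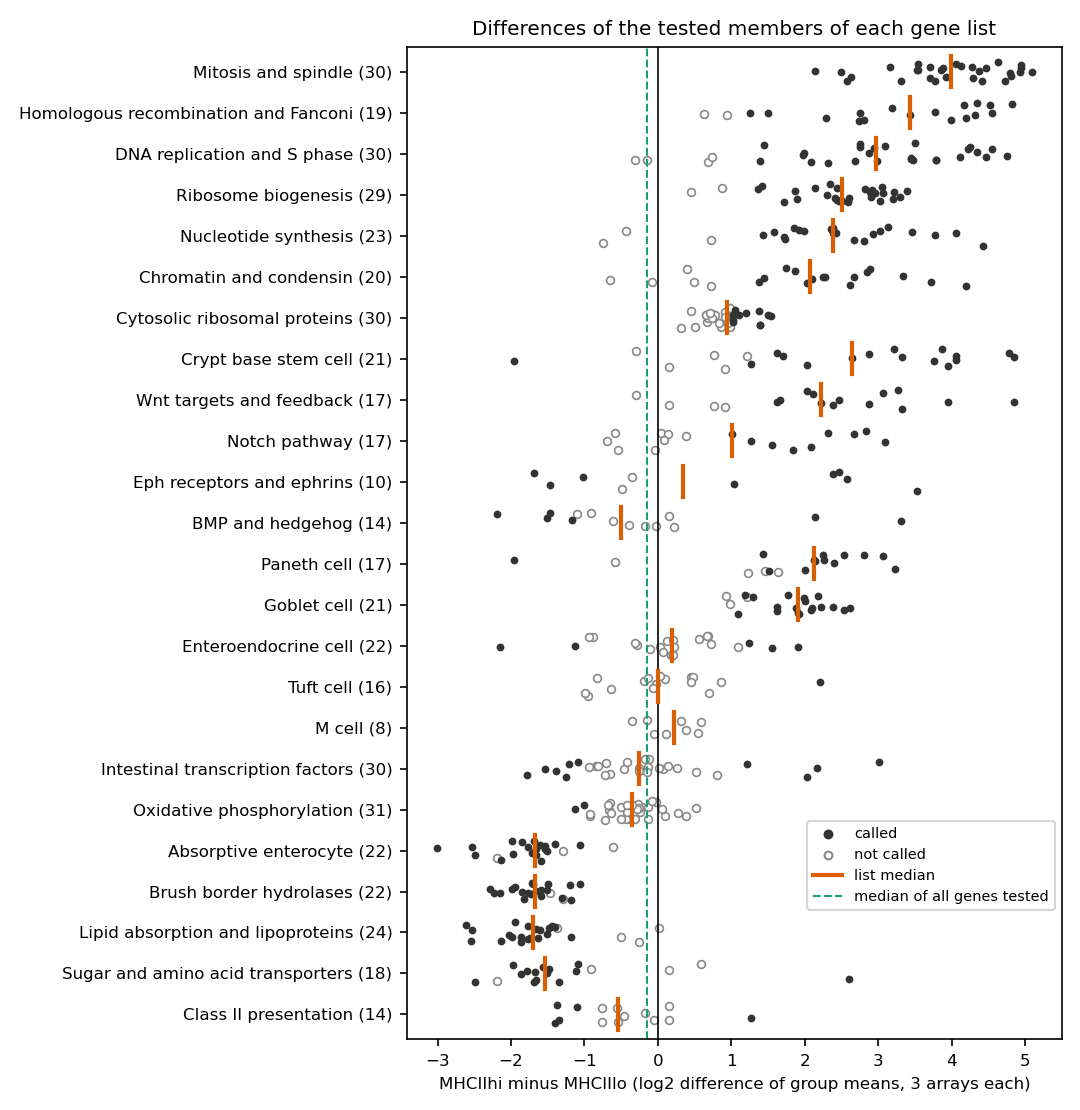
Difference between MHCIIhi and MHCIIlo (x axis, log2 difference of group means, 3 arrays each) for the tested members of 24 gene lists, with the number of members in brackets. Filled points were called, open points were not, orange bars mark list medians and the dashed line marks the median of all genes tested, -0.15; list medians run from 3.99 for mitosis to -1.70 for lipid absorption.

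The machinery of cell division was higher in MHCIIhi, with the largest median difference among the gene lists examined. All 30 mitosis and spindle genes tested were called higher, against 17% of all genes, with a median difference of 3.99. So were 26 of 30 DNA replication genes, with a median of 2.96. A gene could be tested through MHCIIhi alone. The 18 mitosis genes above background on all 6 arrays had a median of 3.70, and the 26 such replication genes 2.81. When only such probes were tested, 1758 of 13960 genes were called higher. With normexp background correction, which shrinks weak signals, the list medians were 2.44 and 1.95. In RNA from bulk cells, fewer cells of a type and less RNA per cell cannot be told apart, so these values do not say how many cells were dividing. Mki67, a protein of dividing cells' chromosomes, stood at 4.90, 5.27 and 4.29 on MHCIIhi 1, 2 and 3 and at 1.60, 0.35 and 0.34 on MHCIIlo 1, 2 and 3, a difference of 4.06 ± 0.41 (adjusted p = 0.00135 in limma). Top2a, the topoisomerase that untangles chromosomes, stood at 1.83, 2.28 and 1.23 against -1.57, -3.22 and -2.97, which is 20.7-fold higher (4.37 ± 0.47, limma adjusted p = 0.00151). For both genes the groups lay far apart, with MHCIIhi 3 the lowest of its group and MHCIIlo 1 the highest of its own. Ube2c, an enzyme that tags mitotic proteins for destruction, was 13.7-fold higher (3.77 ± 0.39, limma adjusted p = 0.0014), and Ccna2, the cyclin of S phase and G2, was 21.4-fold higher (4.42 ± 0.63, limma adjusted p = 0.00327). Cdk1, the kinase that starts mitosis, differed by 5.10 ± 0.68 (limma adjusted p = 0.00272), but it was above background on 1 MHCIIlo array alone, so this size is imprecise.

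The replicative helicase was higher throughout. Mcm6, a helicase subunit, stood at 4.81, 5.21 and 4.45 in MHCIIhi against 1.64, 1.24 and 1.14 in MHCIIlo, an 11.2-fold difference (3.48 ± 0.26, limma adjusted p = 0.00108). Mcm5, another subunit, was 19.0-fold higher (4.25 ± 0.41, limma adjusted p = 0.00126), and Uhrf1, which carries DNA methylation through replication, was higher by 4.35 ± 0.40 (limma adjusted p = 0.0012). Pcna, the sliding clamp, differed less, at 1.45 ± 0.26 (limma adjusted p = 0.00691). Replication genes not called included Lig1 at 0.68 ± 0.31 (limma adjusted p = 0.102), Slbp at 0.73 ± 0.20 (0.0232) and Ccne2 at -0.15, of which Lig1 was called with quantile normalization. Homologous recombination and Fanconi genes, which repair breaks and crosslinks met by replication forks, numbered 19. Of these, 17 were called higher with a median of 3.43, or 2.74 with the 5 genes unmeasured in MHCIIlo set at their bound. Only 6 of the 19 were above background on all 6 arrays, with a median of 1.38. The count and the larger medians thus rest mostly on genes not measured on every array. Fanca, a core Fanconi protein, stood at 0.94, 1.48 and 0.67 against -1.57, -1.68 and -1.88, a difference of 2.74 ± 0.25 (limma adjusted p = 0.0012). With normexp background correction, which shrinks weak signals, 7 of the 19 were called and the median was 0.86. Among genes not above background on any MHCIIlo array, Rrm2, a subunit of the enzyme that makes deoxyribonucleotides, was at least 8.59-fold higher, and Kif14, a mitotic kinesin, at least 8.34-fold; the call of Rrm2 was lost with normexp (0.85).

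Because the division genes moved together, their promoters are shown. RefSeq promoter windows (GRCm38.p6, 250 bases before to 50 after the start) were matched by symbol for 25 of the 30 mitosis genes, 24 of the 30 replication genes and 10081 of the 16500 genes tested. Short motifs were searched on both strands, each on its own, so that matches sharing letters count under each. CCAAT is the core of the NF-Y motif. The letters TTTGAA form the core of the element called CHR in mitotic genes. The E2F motif was searched in the forms TTTGGCGC and TTTCCCGC. The 150 bases before the start are printed for 3 mitosis genes and 2 replication genes, 5′ to 3′ on the gene's strand, with matches on either strand in capitals.
Cdk1 (chr10:69352913-69353062, minus strand): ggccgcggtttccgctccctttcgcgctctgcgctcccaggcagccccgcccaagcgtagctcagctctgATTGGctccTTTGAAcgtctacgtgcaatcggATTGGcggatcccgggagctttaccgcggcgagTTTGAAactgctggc
Top2a (chr11:99024190-99024339, minus strand): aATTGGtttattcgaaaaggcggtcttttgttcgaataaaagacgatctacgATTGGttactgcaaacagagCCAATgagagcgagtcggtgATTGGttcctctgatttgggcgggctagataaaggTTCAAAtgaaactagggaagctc
Ube2c (chr2:164769779-164769928, plus strand): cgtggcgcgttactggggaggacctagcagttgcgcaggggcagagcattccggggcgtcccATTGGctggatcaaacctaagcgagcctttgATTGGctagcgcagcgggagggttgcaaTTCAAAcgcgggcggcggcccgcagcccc
Mcm5 (chr8:75109359-75109508, plus strand): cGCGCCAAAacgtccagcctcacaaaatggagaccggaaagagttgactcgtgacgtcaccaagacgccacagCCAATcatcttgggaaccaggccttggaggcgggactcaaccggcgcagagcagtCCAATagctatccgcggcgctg
Mcm6 (chr1:128359706-128359855, minus strand): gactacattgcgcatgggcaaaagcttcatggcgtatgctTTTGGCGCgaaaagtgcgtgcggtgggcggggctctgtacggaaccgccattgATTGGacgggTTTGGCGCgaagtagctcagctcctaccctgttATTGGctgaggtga
The 3 mitosis windows each held at least 2 CCAAT and at least 1 TTTGAA, and the Mcm5 and Mcm6 windows each held 2 CCAAT, no TTTGAA, and 1 and 2 copies of TTTGGCGC. Over the 300 bases, CCAAT lay in 23 of 25 mitosis promoters (92.0%) and TTTGAA in 19 (76.0%), against 38.8% and 12.1% of all genes tested and 37.9% and 18.1% of the 27025 promoters in the table. None of the 25 held either E2F form, whereas 9 of 24 replication promoters did (37.5%), against 2.96% of genes tested. Of the 24, 16 held CCAAT and 4 held TTTGAA. A high CCAAT share was not particular to division genes. Of 17 unfolded protein response promoters 14 held CCAAT (82.4%) and 0 held TTTGAA, and that list gave 2 higher and 2 lower of 21 genes. Across all genes tested with a promoter, 17.8% were called higher. The share was 29.7% of the 518 with both CCAAT and TTTGAA and 28.9% of the 298 with an E2F form, against 18.1% of 3398 with CCAAT but no TTTGAA, 19.3% of 704 with TTTGAA but no CCAAT, and 16.1% of 5316 with none of these letters. Of the 518 and the 298 genes, 51 and 30 were members of the gene lists. A match is a description of the letters and not a measured binding site.

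Growth genes were higher alongside division genes. Of 29 ribosome biogenesis genes, 27 were called higher and none lower, with a median of 2.51, and the groups of all 29 did not overlap. Polr1b, a catalytic subunit of RNA polymerase I, stood at 0.79, 0.96 and 0.22 in MHCIIhi and at -2.06, -2.82 and -3.05 in MHCIIlo, which is 9.82-fold higher (3.30 ± 0.32, limma adjusted p = 0.00126). Lyar, a nucleolar factor of rRNA processing, stood at 2.02, 2.43 and 1.33 against -0.72, -2.02 and -1.67, which is 10.5-fold higher (3.39 ± 0.41, limma adjusted p = 0.00194). In both, MHCIIhi 3 was the lowest of its group and still above every MHCIIlo array by more than the spread within groups. Gnl3, or nucleostemin, differed by 3.21 ± 0.34 (limma adjusted p = 0.00148). Those not called were Bop1 at 0.45 ± 0.23 (limma adjusted p = 0.132) and Ddx10 at 0.87 ± 0.22 (0.0193).

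Nucleotide synthesis followed, with 20 of 23 genes called higher, none lower, and a median of 2.39. Ctps, which makes CTP, stood at 2.25, 2.34 and 1.61 against -1.23, -2.88 and -1.87, a 16.6-fold difference (4.06 ± 0.43, limma adjusted p = 0.00148). Dut, which keeps uracil out of DNA, was higher by 3.46 ± 0.38 (limma adjusted p = 0.0016), and Shmt1, which feeds single carbons to thymidylate, by 3.77 ± 0.33 with 2 MHCIIlo arrays above background (limma adjusted p = 0.00118). The exceptions were the purine enzymes Adss at -0.44 ± 0.26 (limma adjusted p = 0.184) and Pfas at -0.75, and the ribose donor enzyme Prps1 at 0.72 ± 0.24 (0.0421). Chromatin and condensin genes were called higher in 15 of 20 cases, with a median of 2.07. Smc2, a condensin core subunit, stood at 1.57, 1.85 and 0.82 against -1.63, -2.18 and -1.96, a difference of 3.34 ± 0.30 (limma adjusted p = 0.0012). The B-type lamin gene Lmnb1 was higher by 2.85 ± 0.41 (limma adjusted p = 0.00336), whereas the A-type lamin gene Lmna, at 5.70, 6.05 and 6.09 against 5.77, 5.97 and 6.34, differed by -0.08 ± 0.22.

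Cytosolic ribosomal protein genes differed by small, like amounts. The 30 differences all lay between 0.32 and 1.55, with a median of 0.94, and the groups of 29 did not overlap, but 11 reached the size threshold and none was lower. Rpl3 stood at 6.65, 6.82 and 5.94 against 5.38, 4.63 and 4.77, a difference of 1.55 ± 0.31 (limma adjusted p = 0.00916), and Rps6 differed by 1.502 ± 0.30 (limma adjusted p = 0.0093). Rplp1, an acidic stalk protein, stood at 9.52, 9.30 and 9.40 against 9.20, 8.91 and 9.16 and was not called (0.32 ± 0.18, limma adjusted p = 0.178). Since many members sat near the threshold, the count moved from 6 without MHCIIhi 2 or MHCIIlo 2 and 7 without MHCIIhi 1 to 17 without MHCIIhi 3, and was 22 with quantile normalization and 21 with normexp.

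Crypt base genes were higher, though not all of them. Of 21 stem cell genes tested, 15 were called higher and 1 lower, with a median of 2.64, or 2.02 with 3 unmeasured genes at their bound; under normexp 11 were higher, with a median of 1.35. Smoc2, a secreted matrix protein of crypt base cells, stood at 2.51, 2.79 and 1.98 in MHCIIhi and at -1.04, -1.79 and -1.46 in MHCIIlo, a 14.5-fold difference (3.86 ± 0.29, limma adjusted p = 0.00108). Cd44, a hyaluronan receptor of crypt cells, stood at 1.73, 1.40 and 1.09 against -2.26, -1.65 and -1.83 (3.32 ± 0.25, limma adjusted p = 0.00108). Sox9, a transcription factor of stem and Paneth cells, stood at 2.25, 2.01 and 1.72 against 0.07, -0.46 and 0.30 (2.02 ± 0.26, limma adjusted p = 0.00239). For these 3 genes every MHCIIhi array lay above every MHCIIlo array, with MHCIIhi 3 the lowest of its group. Ascl2, a transcription factor that marks crypt base stem cells, was not called at 0.15 ± 0.27 (limma adjusted p = 0.657). Msi1, an RNA-binding protein, was the 1 list member called lower, at 1.59, 1.61 and 2.97 against 3.65, 4.03 and 4.35 (-1.96 ± 0.40, limma adjusted p = 0.0101).

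Wnt targets were called higher in 13 of 17 cases, against 17% of all genes, with a median of 2.22, and in 8 with a median of 0.97 under normexp. The median was 2.02 with 4 genes unmeasured in MHCIIlo set at their bound. It was 2.12 for the 12 members above background on all 6 arrays. The list shares members with the stem cell list, among them Cd44, Axin2 and Rnf43, so it is not a separate result. Ccnd1, cyclin D1, stood at 3.45, 3.54 and 2.63 against 1.59, -0.42 and -0.74 (3.06 ± 0.60, limma adjusted p = 0.00884). Axin2, part of the complex that destroys beta-catenin, stood at 1.42, 1.22 and 0.36 against 0.48, 0.04 and 0.21, a difference of 0.76 ± 0.31 that was not called (limma adjusted p = 0.0745), and its groups overlapped through MHCIIhi 3. Rnf43, a ligase that removes Wnt receptors, was likewise not called (0.91 ± 0.29, limma adjusted p = 0.0365). Within the slide they differed by 0.11 and 0.35, and without MHCIIhi 3 both were called (1.08 and 1.19).

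Eph receptors and their ephrin ligands, which sort crypt cells from villus cells, gave 5 higher and 3 lower of 10 tested. Ephb2, a receptor of crypt cells, stood at 1.02, 1.24 and 0.51 in MHCIIhi and at -1.44, -1.72 and -1.45 in MHCIIlo, a 5.52-fold difference (2.46 ± 0.24, limma adjusted p = 0.00126). The receptors Ephb3 (2.39 ± 0.24, limma adjusted p = 0.00129) and Ephb4 (2.58 ± 0.26, 0.00135) were higher by similar amounts. The ligand Efna1 was lower, at 1.07, 0.60 and 1.62 against 2.42, 2.92 and 3.02 (-1.69 ± 0.30, limma adjusted p = 0.00686). The ligand Efnb1, a partner of the EphB receptors, stood at 5.05, 4.87 and 5.28 against 5.74, 6.06 and 6.45 and was just past the size threshold (-1.02 ± 0.24, limma adjusted p = 0.0146), a call lost without MHCIIhi 1 (-1.01), MHCIIhi 2 (-0.92) or MHCIIlo 3 (-0.83) and with quantile normalization (-0.64). Receptors and ligands lay on both sides: the ligand Efna4 was higher at 1.03 ± 0.21 (limma adjusted p = 0.00916), a call lost without MHCIIhi 2 (0.94) or MHCIIlo 2 (0.91) and with normexp (0.57), and the receptor Epha1 was lower at -1.47 ± 0.38 (limma adjusted p = 0.0188), a call lost without MHCIIhi 1 (-1.30), MHCIIhi 2 (-1.24), MHCIIlo 2 (-1.37) or MHCIIlo 3 (-1.35). Without MHCIIhi 1, MHCIIhi 2 or MHCIIlo 3 only 1 of the 10 was called lower, and 2 were without MHCIIlo 2.

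Notch pathway genes were called higher in 9 of 17 cases and lower in 0, with a median of 1.01; at an unadjusted p under 0.05 limma gave 2 lower. The receptor Notch2 stood at 0.01, 0.34 and -0.92 against -2.33, -3.18 and -3.05 (2.67 ± 0.38, limma adjusted p = 0.00322). Hes1, the repressor that Notch turns on, stood at -0.59, -0.36 and -0.45 against -1.88, -2.37 and -1.83, a 2.95-fold difference (1.56 ± 0.21, limma adjusted p = 0.00282). Its within-slide difference of 1.57 was as large, and with normexp it was 0.69 and not called. The ligands Dll1 (-0.04) and Dll4 (-0.58) were not called. Weak signal bears on this list, since 2 of the 17 were called with normexp, at a median of 0.13. The 13 members above background on all 6 arrays had a median of 0.14.

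Members of the Myc and Max network were called in both directions. Myc, which drives growth genes, stood at 1.42, 1.33 and 0.97 in MHCIIhi and at -1.75, -2.62 and -1.73 in MHCIIlo, a 9.69-fold difference (3.28 ± 0.29, limma adjusted p = 0.00119). Mxi1, a Max partner that opposes Myc, stood at 1.19, 0.95 and 1.80 against 2.56, 3.28 and 3.35, which is 3.36-fold lower (-1.75 ± 0.31, limma adjusted p = 0.00667). All MHCIIhi arrays were above all MHCIIlo arrays for Myc and below them for Mxi1. Max, the shared partner, stood at 4.05, 3.58 and 4.54 against 5.01, 5.51 and 5.10 (-1.15 ± 0.28, limma adjusted p = 0.0168), a call lost without MHCIIhi 1 (-1.15), MHCIIhi 2 (-0.91) or MHCIIlo 2 (-1.00006) and with quantile normalization (-0.76) or normexp (-0.84). Mxd3, a Max partner of the same family as Mxi1, was at least 5.01-fold higher with no MHCIIlo array above background, a call lost with normexp (0.25). Mnt, another partner, differed by -0.08. In all, 5 of 12 were called higher and 4 lower; 1 remained lower without MHCIIhi 1 or MHCIIhi 2 and 2 without MHCIIlo 2, and with normexp 1 was higher and 3 lower.

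Hedgehog and BMP genes gave 2 higher and 4 lower of 14 tested, with a median of -0.50. Over all genes 17% were called higher and 16.1% lower, so the higher count is near its share. Ihh, the hedgehog ligand of villus epithelium, stood at 1.49, 1.51 and 2.15 against 3.99, 3.69 and 4.05, which is 4.58-fold lower in MHCIIhi (-2.20 ± 0.24, limma adjusted p = 0.0016). Smo, the signal transducer of hedgehog, was higher by 3.31 ± 0.53 (limma adjusted p = 0.00495). Bmp2, a BMP ligand, was lower at -0.44, -1.36 and -0.09 against 0.63, 0.84 and 1.16 (-1.51 ± 0.34, limma adjusted p = 0.0132), and so was Id2, a target of BMP signals (-1.48 ± 0.31, 0.0109). The targets Id1 at -0.39 and Id3 at -0.61 were not called. Ptch1, a hedgehog receptor, was at least 1.28-fold higher with no MHCIIlo array above background, but with normexp its difference was -0.41, so its direction is unsettled. Cell cycle inhibitors gave 2 higher and 6 lower of 18. Cdkn2b, or p15, stood at 4.30, 4.01 and 4.93 against 6.01, 5.86 and 6.25, which is 3.08-fold lower (-1.62 ± 0.27, limma adjusted p = 0.00562). Cdkn1a, or p21, stood at 2.84, 2.81 and 3.25 against 4.03, 3.92 and 3.94 and fell just short of the size threshold (-0.997 ± 0.20, limma adjusted p = 0.00871), which it passed without MHCIIhi 3 (-1.14), MHCIIlo 2 (-1.02) or MHCIIlo 3 (-1.01). The number of inhibitors called lower was 2 without MHCIIhi 2, 4 without MHCIIhi 1 or MHCIIlo 3, and 2 with quantile normalization.

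**Figure D2:**
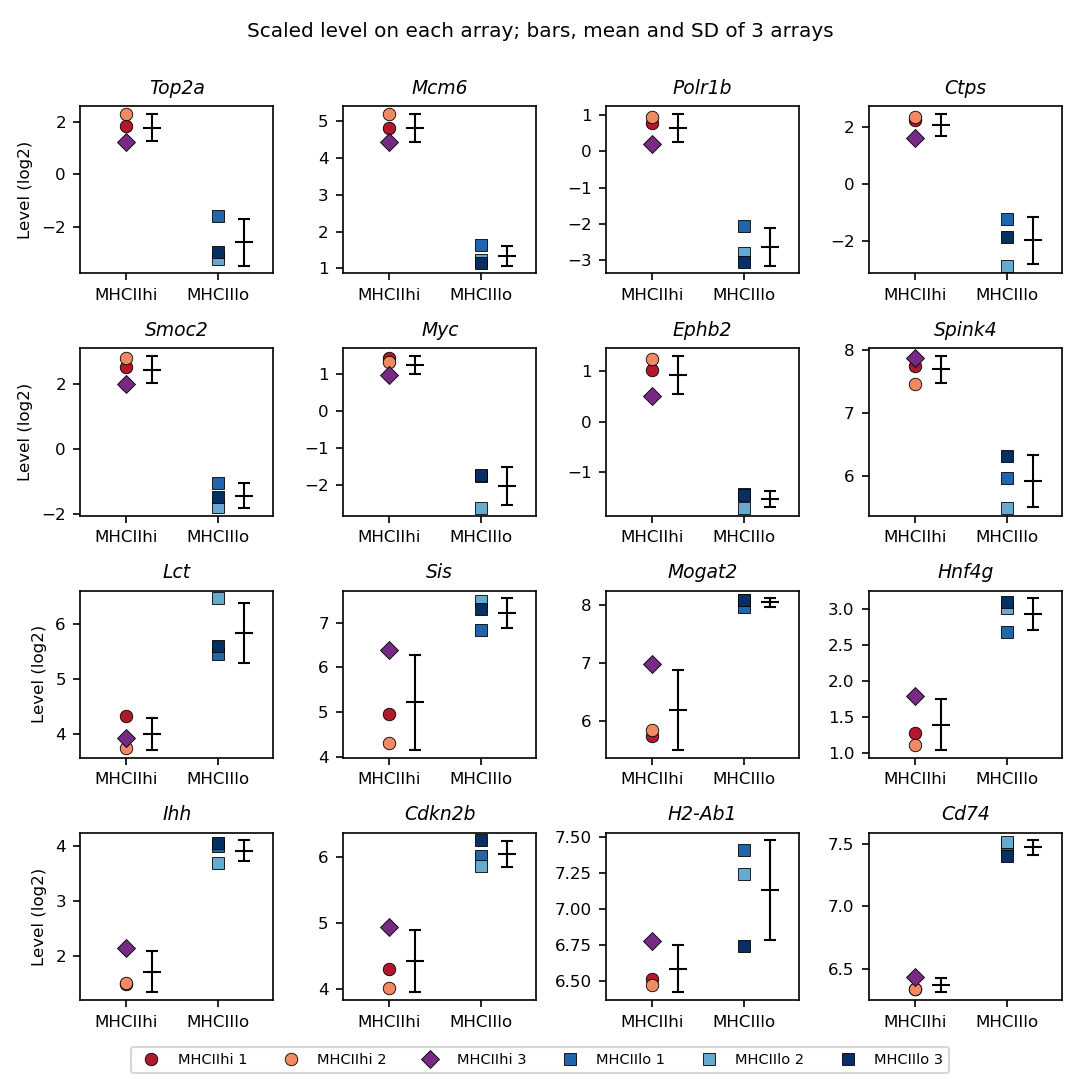
Scaled level (y axis, log2 signal relative to the 75th percentile of each array) on each of the 6 arrays for 16 genes of the lists, with the mean and SD of 3 arrays beside each group; each panel has its own axis. The MHCIIhi arrays lie above the MHCIIlo arrays from Top2a to Spink4 and below them from Lct to Cdkn2b and for Cd74, MHCIIhi 3 (diamond) lies nearest MHCIIlo in most panels, and the highest MHCIIhi value of H2-Ab1, 6.78, passes the lowest MHCIIlo value, 6.75.

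Secretory lineages did not move as one. Of 21 goblet cell genes, 18 were called higher and none lower, with a median of 1.91. Spink4, a secreted protease inhibitor of goblet cells, stood at 7.75, 7.46 and 7.88 in MHCIIhi and at 5.98, 5.50 and 6.32 in MHCIIlo (1.77 ± 0.26, limma adjusted p = 0.00345), and its within-slide difference of 1.95 was as large. Ccl9, a chemokine in the list, was higher by 2.54 ± 0.42 (limma adjusted p = 0.0052). Clca1, a mucus-processing protein, stood at 8.65, 7.54 and 8.95 against 7.71, 7.78 and 6.71, overlapped, and was not called (0.98 ± 0.44, limma adjusted p = 0.0989). Paneth cell genes gave 12 higher and 1 lower of 17, with a median of 2.12. Lyz1, the Paneth lysozyme, stood at 6.77, 6.45 and 5.93 against 4.32, 2.86 and 4.79 (2.40 ± 0.49, limma adjusted p = 0.0101), though Lyz1 and Lyz2 are near-identical and their probes may read both. Defa21, a defensin of a family whose members share sequence, differed by 2.26 ± 0.51 (limma adjusted p = 0.0133), a call lost without MHCIIhi 1 (2.02). The lower member was Guca2b, the precursor of uroguanylin, which enterocytes also make, at 6.29, 5.91 and 7.29 against 8.00, 8.56 and 8.81 (-1.96 ± 0.39, limma adjusted p = 0.00895); it was not called when all 9 arrays were fitted (-1.96). The Paneth count called higher fell to 7 without MHCIIhi 1 and was 15 without MHCIIlo 3.

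The rarer secretory types gave few calls. Of 22 enteroendocrine genes 3 were called higher and 2 lower, with a median of 0.19, shares below those of all genes. Without MHCIIhi 1 or MHCIIlo 3 the enteroendocrine counts were 1 and 1, without MHCIIlo 2 they were 1 and 0, without MHCIIhi 2 they were 2 and 0, and without MHCIIhi 3 they were 2 and 2. Sct, the hormone secretin, stood at 6.85, 5.50 and 6.18 against 6.24, 6.08 and 6.00 (0.07 ± 0.33, limma adjusted p = 0.87), and Chga, a granule protein of these cells, differed by -0.89 ± 0.22 (limma adjusted p = 0.0162) and was not called. Pax6, a transcription factor of hormone cells, was lower, with a difference of -2.14 ± 0.55 (limma adjusted p = 0.0192), a call lost without MHCIIhi 1, MHCIIhi 2, MHCIIlo 2 or MHCIIlo 3, with differences between -2.77 and -1.75 when 1 array was left out. Of 16 tuft cell genes 1 was called, Cd24a, a surface glycoprotein also made by other crypt cells, at 4.00, 3.83 and 3.50 against 1.54, 1.21 and 1.94 (2.21 ± 0.25, limma adjusted p = 0.0017). Dclk1, the kinase used to mark tuft cells, stood at -0.47, -2.69 and -1.38 against -2.50, -1.0002 and -0.48, overlapped widely, and was not called (-0.19 ± 0.67, limma adjusted p = 0.827). Of 8 M cell genes 0 were called by limma, and 0 had an unadjusted p under 0.05 in either direction, whereas 2 were called higher without MHCIIlo 1; the median was 0.21.

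Genes of absorption were lower in MHCIIhi. Of 22 brush border hydrolase genes 20 were called lower and none higher, against 16.1% of all genes called lower, with a median of -1.68. Lct, lactase, stood at 4.33, 3.76 and 3.93 in MHCIIhi and at 5.47, 6.48 and 5.60 in MHCIIlo, which is 3.60-fold lower (-1.85 ± 0.31, limma adjusted p = 0.00569). Ggt1, which breaks down glutathione at the cell surface, stood at 2.81, 2.37 and 4.11 against 4.76, 5.57 and 5.82, which is 4.88-fold lower (-2.29 ± 0.48, limma adjusted p = 0.0109). The groups did not overlap for either gene, but MHCIIhi 3 lay among its group for Lct and toward MHCIIlo for Ggt1, as it did for most absorptive genes. Mme, or neprilysin, was lower, with a difference of -2.15 ± 0.47 (limma adjusted p = 0.0118) and Myo1a, the myosin that ties the brush border core to its membrane, differed by -1.77 ± 0.32 (0.00712). Sis, sucrase-isomaltase, stood at 4.96, 4.31 and 6.39 against 6.84, 7.49 and 7.29, a difference of -1.99 ± 0.50 (limma adjusted p = 0.0183), which was -0.82 within the slide and lost its call without MHCIIhi 1, MHCIIhi 2, MHCIIlo 2 or MHCIIlo 3 (differences of -2.57 to -1.53 with 1 array left out).

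Lipid absorption gave 20 lower and 0 higher of 24, with a median of -1.70. Mogat2, which rebuilds diglyceride from absorbed monoglyceride, stood at 5.74, 5.83 and 6.99 against 7.97, 8.10 and 8.09, a 3.65-fold difference (-1.87 ± 0.34, limma adjusted p = 0.0071). Dgat1, which completes triglyceride, was lower, with a difference of -1.95 ± 0.38 (limma adjusted p = 0.0083), and Cd36, a fatty acid receptor, stood at -3.94, -4.37 and -3.26 against -1.75, -0.54 and -1.65, a 5.84-fold difference (-2.55 ± 0.41, limma adjusted p = 0.00484). Mttp, which loads lipid onto lipoproteins, was lower, with a difference of -1.66 ± 0.38 (limma adjusted p = 0.0141), a call lost without MHCIIhi 2 (adjusted p = 0.0503). The lipid droplet coat gene Plin2 was not called at -0.26 ± 0.20. Of 18 sugar and amino acid transporters 13 were lower and 1 higher, with a median of -1.54. Slc43a2, an amino acid exporter, stood at 0.11, 0.25 and 1.46 against 2.19, 2.84 and 2.37 (-1.86 ± 0.39, limma adjusted p = 0.0102), and Slc6a20a, a proline carrier, was lower, with a difference of -1.78 ± 0.35 (limma adjusted p = 0.00905). The exception was Slc1a5, a glutamine carrier used by growing cells, at 2.48, 2.27 and 1.73 against 0.05, -0.82 and -0.55, which is 6.06-fold higher (2.60 ± 0.30, limma adjusted p = 0.0018).

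These absorptive counts rested on single arrays more than the division counts did. Without MHCIIhi 1 the number called lower was 8 of 22 for general enterocyte genes (19 with all arrays), 11 for brush border genes, 11 for lipid genes and 3 for transporters. Without MHCIIhi 3 it was 21, 22, 20 and 15. Without MHCIIhi 2, MHCIIlo 2 and MHCIIlo 3 in turn it was 9, 9 and 9 for enterocyte genes, 14, 15 and 14 for brush border genes, 13, 13 and 17 for lipid genes, and 5, 4 and 6 for transporters. The list medians changed little by comparison, staying between -2.12 and -1.41 for the enterocyte and brush border lists. With quantile normalization 11 enterocyte genes, 15 brush border genes and 7 transporters were called lower, and with slide as a block 0 members of these 4 lists were, against 0.843% of all genes.

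Both lists of genes with set positions along the villus had more members called lower than higher. Over all genes 16.1% were called lower. The villus tip list gave 8 lower of 17, with a median of -1.21; the number was 1 without MHCIIhi 1, 2 without MHCIIhi 2 or MHCIIlo 2 and 3 without MHCIIlo 3. Xdh, the enzyme that ends purine breakdown, stood at 3.00, 2.44 and 3.61 against 4.45, 5.06 and 4.65 (-1.71 ± 0.33, limma adjusted p = 0.00813). Ada, which deaminates adenosine at the villus tip, stood at 5.03, 6.72 and 7.88 against 8.00, 8.58 and 6.59, overlapped, and was not called (-1.18 ± 0.77, limma adjusted p = 0.23). Villus bottom defence genes gave 6 lower and 2 higher of 15, with a median of -0.72, and with 3 lower without MHCIIhi 2 and 4 without MHCIIhi 1 or MHCIIlo 3. Within the slide the medians were -0.50 for the villus tip list and -0.61 for the villus bottom list. Ccl25, the chemokine that draws lymphocytes to the small intestine, stood at 7.20, 6.83 and 7.71 against 8.84, 8.98 and 9.17, which is 3.37-fold lower (-1.75 ± 0.26, limma adjusted p = 0.00373). Il18, a cytokine of the epithelium, stood at 0.58, 0.45 and 0.96 against 2.92, 2.20 and 2.14 (-1.76 ± 0.27, limma adjusted p = 0.00425), and Reg3a, an antimicrobial lectin, was lower, with a difference of -1.59 ± 0.28 (limma adjusted p = 0.00668). Reg3g, a related lectin, was not called at -0.64, though these lectins resemble each other in sequence.

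Energy metabolism moved less than absorption. Of 31 oxidative phosphorylation genes 2 were called lower and 0 higher, with a median of -0.36, which became 0.02 under quantile normalization and -0.02 under normexp. The 2 were Uqcrc1 (-1.13) and Cycs (-1.01), whose calls were lost without MHCIIlo 3 (-0.97 and -0.999) and with quantile normalization (-0.83 and -0.72); Cycs was also lost without MHCIIhi 1 (-0.94) or MHCIIhi 2 (-0.92). Fatty acid oxidation and ketogenesis gave 6 lower and 1 higher of 24. Crat, a carnitine acyltransferase, was lower, with a difference of -1.54 ± 0.33 (limma adjusted p = 0.0116), and Ehhadh, a peroxisomal enzyme, differed by -1.43 ± 0.29 (limma adjusted p = 0.00912), the second not called with all 9 arrays fitted; the number lower was 3 without MHCIIhi 1 and 4 without MHCIIhi 2 or MHCIIlo 3. Rdh7, a retinol dehydrogenase, stood at -0.45, -0.45 and 0.56 against 1.85, 2.12 and 1.57 (-1.96 ± 0.32, limma adjusted p = 0.00517).

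Transcription factors of the intestine gave 4 higher and 6 lower of 30, with a median of -0.26. Over all genes 17% were called higher and 16.1% lower, so both counts are near their shares. Hnf4g, which turns on enterocyte genes, stood at 1.29, 1.11 and 1.79 against 2.68, 3.02 and 3.09, which is 2.90-fold lower (-1.54 ± 0.24, limma adjusted p = 0.00448), whereas its relative Hnf4a was not called at -0.26. Foxa2, a forkhead factor, was higher by 3.00 ± 0.43 with 2 MHCIIlo arrays above background (limma adjusted p = 0.00322). Gata5 was lower, with a difference of -1.25 ± 0.20 (limma adjusted p = 0.00485), a call lost with normexp (-0.96). The intestinal identity factors Cdx2 (-0.46) and Cdx1 (0.26) and the crypt factor Klf5 (0.01 ± 0.19, limma adjusted p = 0.954) were not called. The number lower was 3 without MHCIIhi 1, MHCIIhi 2 or MHCIIlo 2, 4 without MHCIIlo 3 and 9 without MHCIIhi 3. Proximal and ileal marker genes were both called lower, in 6 of 10 and 6 of 13 cases, and none was called higher (3 ileal genes were lower without MHCIIhi 1). The proximal marker Fabp1 is also in the enterocyte list, so these counts cannot tell region apart from the lower absorptive genes. Sult1b1, a proximal sulfotransferase, was lower, with a difference of -1.48 ± 0.27 (limma adjusted p = 0.00745), and the ileal bile acid carrier Fabp6 stood at 5.46, 5.33 and 5.88 against 7.46, 6.83 and 7.04 (-1.55 ± 0.25, limma adjusted p = 0.00462).

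The labels name the groups by surface class II, and the class II transcripts did not follow that order. H2-Ab1, a class II beta chain, stood at 6.51, 6.47 and 6.78 in MHCIIhi and at 7.41, 7.24 and 6.75 in MHCIIlo and was not called (-0.55 ± 0.23, limma adjusted p = 0.0844). Of 14 class II presentation genes 1 was called higher and 4 lower, with a median of -0.55, or -0.20 with quantile normalization, at which 3 were lower. H2-DMb1, part of the factor that exchanges peptides on class II, stood at 4.63, 4.18 and 4.42 against 5.77, 5.80 and 5.86 (-1.40 ± 0.19, limma adjusted p = 0.00284), and its within-slide difference was -1.39. Ciita stood at 2.07, 1.47 and 2.08 against 3.11, 3.31 and 3.23 (-1.35 ± 0.22, limma adjusted p = 0.00547). Rfxank, a subunit of the RFX complex on class II promoters, was lower, with a difference of -1.38 ± 0.24 (limma adjusted p = 0.00663). Rfx5, another subunit, was the 1 higher, at 1.26 with 1 MHCIIlo array above background, a call lost without MHCIIhi 1, MHCIIhi 2, MHCIIlo 2 or MHCIIlo 3. With quantile normalization, with normexp or without the filter on dim probes, 0 members of the list were called higher. Cd74, the invariant chain, was lower at 6.34, 6.34 and 6.44 against 7.49, 7.51 and 7.41 (-1.10 ± 0.17, limma adjusted p = 0.00395), a call lost with quantile normalization (-0.79) and normexp (-0.85). Btnl1, a butyrophilin-like ligand of intraepithelial T cells, was lower, with a difference of -1.70 ± 0.35 (limma adjusted p = 0.0097). Epcam itself differed by -0.26 ± 0.21 (limma adjusted p = 0.328), and its sign turned with quantile normalization (0.16). Surface protein, on which the cells were sorted, was not measured on these arrays.

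The windows before the starts of 2 class II genes are shown beside these values, since the CCAAT letters are part of the composite element (Y box) known from class II promoters; they are printed as above, from GRCm38.p6.
H2-Aa (chr17:34287824-34287973, minus strand): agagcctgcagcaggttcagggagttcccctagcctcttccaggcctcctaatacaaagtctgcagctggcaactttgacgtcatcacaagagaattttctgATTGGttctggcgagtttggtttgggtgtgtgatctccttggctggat
H2-Eb1 (chr17:34305717-34305866, plus strand): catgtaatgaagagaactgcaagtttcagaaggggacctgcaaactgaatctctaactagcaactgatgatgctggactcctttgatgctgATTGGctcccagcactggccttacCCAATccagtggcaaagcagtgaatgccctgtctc
CCAAT lay in 7 of the 10 class II presentation genes with a matched promoter (70.0%), against 38.8% of all genes tested. Other lists came near this share, with 68.8% for chromatin and condensin and 66.7% for DNA replication. None of the other letters lay in the windows printed here. H2-Aa stood at 3.68, 3.73 and 4.11 against 4.77, 4.58 and 3.83 and was not called (-0.55 ± 0.29, limma adjusted p = 0.143), and H2-Eb1 was not called at -0.47 ± 0.22 (0.111). In both genes the MHCIIlo 3 array lay within the MHCIIhi range.

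Interferon-stimulated genes gave 5 lower and 0 higher of 32, with a median of -0.50. Over all genes 16.1% were called lower and 17% higher, so the lower count is near its share. The number lower was 1 without MHCIIhi 2 or MHCIIlo 2, 0 without MHCIIlo 3 and 7 without MHCIIlo 1. Immediate-early genes, which also answer to tissue dissociation, gave 6 higher and 2 lower of 23, with a median of 0.14; 1 was lower without MHCIIhi 1, MHCIIhi 2, MHCIIlo 2 or MHCIIlo 3. Nr4a1, a nuclear receptor of that class, stood at 5.83, 5.60 and 5.05 against 3.55, 2.48 and 3.56 (2.30 ± 0.36, limma adjusted p = 0.00436), while Fos was not called at 0.22. Unfolded protein response genes gave 2 higher and 2 lower of 21, shares below those of all genes, and 1 of each when any 1 of those same arrays was left out. Ddit3, the stress factor CHOP, was lower, with a difference of -1.62 ± 0.32 (limma adjusted p = 0.00885), and the chaperone gene Hspa5 was not called at -0.29.

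**Figure D3:**
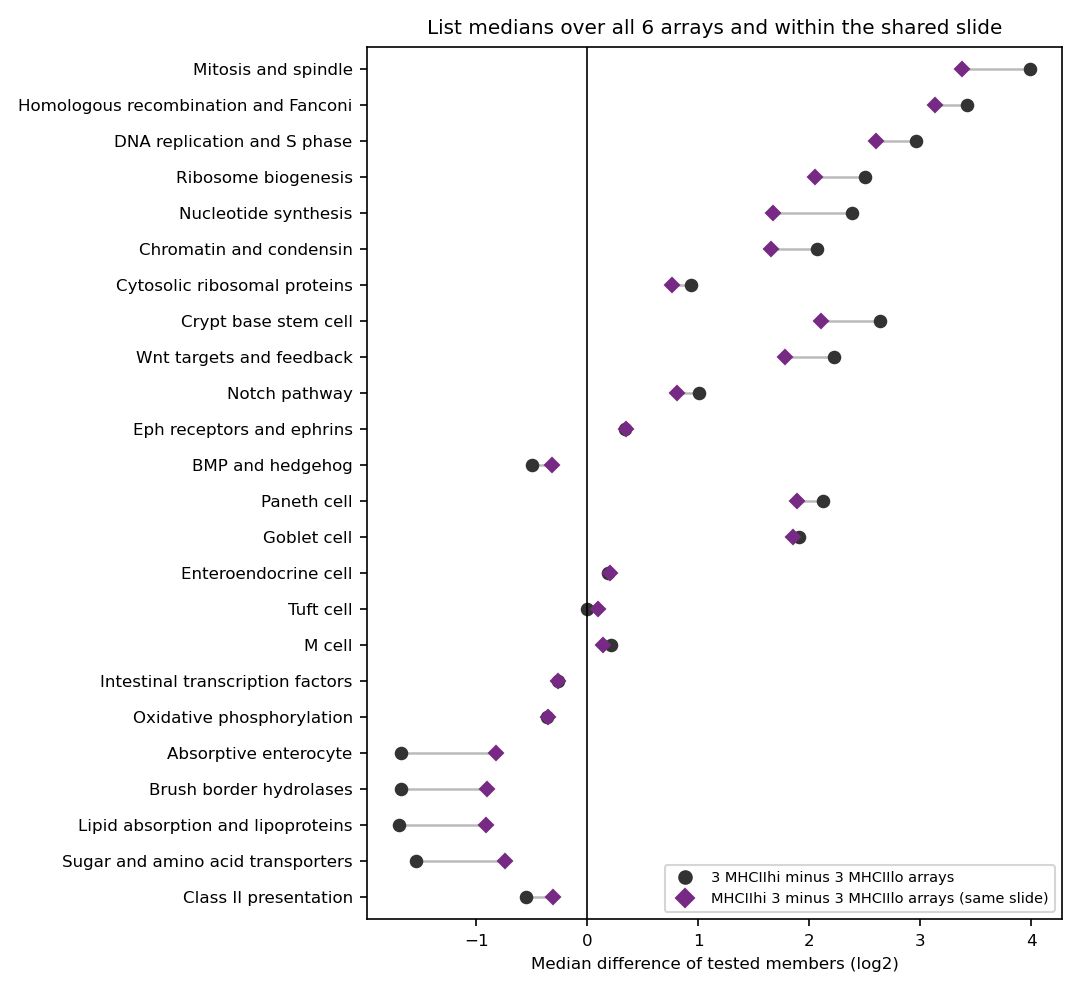
Median difference of the tested members (x axis, log2) for 24 gene lists, with circles for all 6 arrays and diamonds for MHCIIhi 3 against the 3 MHCIIlo arrays on its slide. Division and growth lists keep most of their size within the slide (3.38 of 3.99 for mitosis), and absorptive lists keep less (-0.90 of -1.68 for brush border hydrolases).

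On the slide that MHCIIhi 3 shared with MHCIIlo, the division, growth and absorptive lists kept their sign at a smaller size. The within-slide median was 3.38 for mitosis, 2.60 for DNA replication, 3.14 for homologous recombination, 2.06 for ribosome biogenesis, 1.68 for nucleotide synthesis and 1.85 for goblet genes. It was -0.82 for enterocyte genes, -0.90 for brush border genes, -0.91 for lipid genes and -0.74 for transporters. With slide as a block, 20 of 30 mitosis genes, 23 of 30 replication genes, 14 of 19 recombination genes, 13 of 29 ribosome biogenesis genes, 11 of 23 nucleotide genes and 9 of 21 stem cell genes were called higher, against 4.12% of all genes. Goblet calls went from 18 to 2 of 21 with that block, Paneth calls from 12 to 1 of 17, and cytosolic ribosomal protein calls from 11 to 0 of 30. Over all genes tested, MHCIIhi 3 stood more than 1 log2 unit above the mean of MHCIIhi 1 and 2 for 1367 genes and below it for 229, and for 1205 called genes it lay nearer the MHCIIlo mean than that of the other MHCIIhi arrays. On the first principal component, which held 83.6% of the variance, MHCIIhi 1, 2 and 3 scored -106, -130 and -46.4 and MHCIIlo 1, 2 and 3 scored 51.7, 117 and 115. Whether slide or the composition of that pool set the place of MHCIIhi 3 cannot be told apart.

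Markers of other cell types were also measured, since EDTA releases more than epithelium. Summed on a linear scale on which 1 is the array's 75th percentile, the 17 pan-epithelial genes ran from 1790 to 2393 in MHCIIhi and from 3386 to 3434 in MHCIIlo. Such a sum gives bright genes more weight. Of the 17, 14 were not called, 1 was higher, and 2, Vil1 and Krt20, were lower. Their median difference was -0.32, or -0.04 with quantile normalization and -0.02 with normexp. The 14 B and plasma cell genes ran from 5.72 to 7.46 and from 28.6 to 41.8, and 4 of 10 tested were called lower in MHCIIhi. With 1 array left out, 4 to 6 were lower. Differences of the 10 ran from -4.98 to 0.13, with a median of -0.95, or -0.72 within the slide. Cr2, a complement receptor of B cells, was lower, with a difference of -1.41 ± 0.24 (limma adjusted p = 0.00559), a call lost with normexp (-0.94); Pax5 and Irf4 were above background on no array. The 23 T cell and intraepithelial lymphocyte genes ran from 6.71 to 10.5 and from 15.7 to 26.0, with 12 of 19 tested lower and 1 higher, and 6 lower without MHCIIlo 2, 7 without MHCIIhi 2 and 8 without MHCIIlo 3. Cd3e, a chain of the T cell receptor complex, was lower, with a difference of -1.47 ± 0.33 (limma adjusted p = 0.0122), while Cd247 and Cd160 were above background on no array. Ptprc, which encodes CD45, stood at -1.55, -3.52 and -2.22 against -1.85, -1.19 and -1.48 and was not called (-0.93 ± 0.48, limma adjusted p = 0.141).

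The 22 macrophage and dendritic cell genes ran from 102 to 176 in MHCIIhi and from 18.2 to 53.7 in MHCIIlo, sums held mostly by Lyz2, whose probe may also read the Paneth gene Lyz1. Of 15 tested 2 were higher and 3 lower, counts near the 17% and 16.1% of all genes. Without MHCIIhi 3, 6 were lower, and leaving out other arrays gave 2 to 4 lower and 2 or 3 higher. C1qb, a complement gene of macrophages, was lower, with a difference of -2.17 ± 0.43 (limma adjusted p = 0.00905), Cd14 was higher by 1.59 ± 0.25 (0.00481), and Cx3cr1, Fcgr1, Cd163 and Clec9a were above background on no array. The 19 fibroblast and smooth muscle genes ran from 44.1 to 52.9 and from 84.6 to 112, with 8 of 13 tested lower, and 3 without MHCIIhi 2 and 5 without MHCIIhi 1, MHCIIlo 2 or MHCIIlo 3. Fbln1, a matrix protein, stood at 1.61, 1.70 and 2.16 against 2.77, 3.80 and 4.13 (-1.74 ± 0.37, limma adjusted p = 0.0107), while Acta2, the actin of smooth muscle, was not called at -0.69, and Pdgfra, Des and Cnn1 were above background on no array. The 18 endothelial genes ran from 1.37 to 1.49 and from 1.10 to 1.31, and their defining members Pecam1, Cdh5 and Kdr were above background on no array. The 22 granulocyte and mast cell genes ran from 0.734 to 1.20 and from 1.39 to 2.37. The 14 enteric neuron and glia genes ran from 0.860 to 1.82 and from 2.30 to 4.75. Of these 2 lists, 9 and 7 genes were above background on no array. The lowest well-measured level ran from -5.37 to -4.45 in MHCIIhi and from -4.35 to -3.43 in MHCIIlo. Higher sums of such dim genes in MHCIIlo therefore do not show more of these cells. Lymphocyte and fibroblast markers thus moved with the groups in the same direction as the absorptive genes, and their part in any difference above was not tested.

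**Figure D4:**
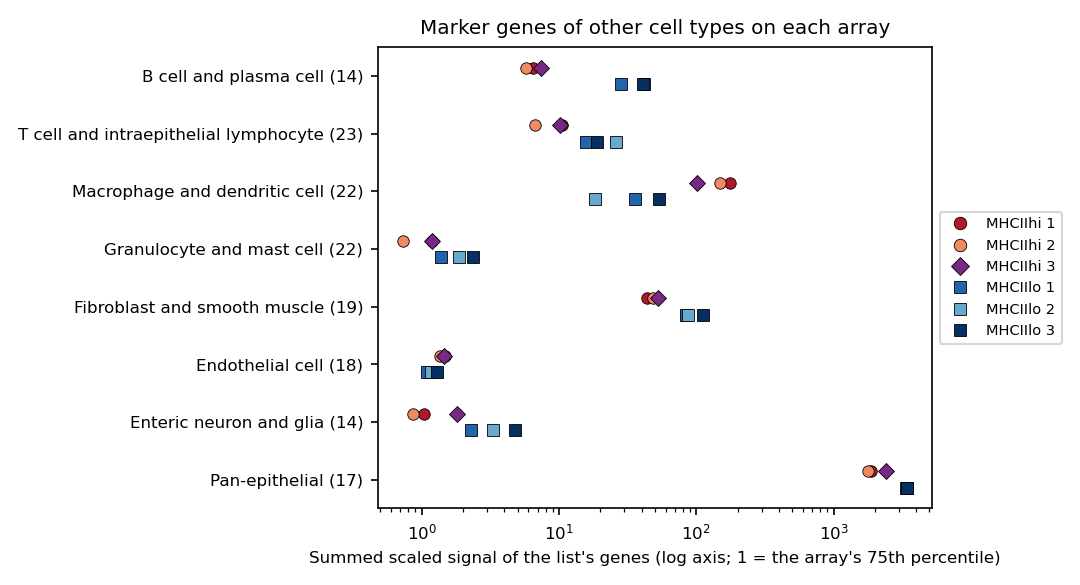
Summed scaled signal (x axis, log axis, 1 equals the array's 75th percentile) of the marker genes of 7 other cell types and of epithelium on each of the 6 arrays, with the number of genes in brackets. Sums for B and plasma cells are 5.72 to 7.46 in MHCIIhi and 28.6 to 41.8 in MHCIIlo, and those for macrophages and dendritic cells, which Lyz2 dominates, run the other way.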

How the data were processed

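RNA of 9 sorted samples was hybridised to single-colour Agilent arrays, and the 6 intestinal arrays were used here; RNA handling and Cy3 labelling were done by Miltenyi, per the labels. The deposited processed signal is a linear intensity, read with Agilent Feature Extraction 10.5.1.1, background-subtracted and detrended, per the file headers, and not yet normalized between arrays. The authors' deposited value table is intensity too, equal to the processed signal over the array's median (largest relative deviation 2.37e-05); the steps behind that table are not given in the sources used here.

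Control spots and the 70 to 118 flagged spots per array were dropped and spots averaged to 41174 probes; 7 tested genes lacked a value on an array for this reason. Names came from the files, updated by accession through RefSeq (30730 probes). Values were log2 processed signal minus the 75th percentile. Probes well above background on all 3 arrays of a group were tested (24182 probes, of which 7722 were called, 31.9%; 16500 genes, 12583 with RefSeq names) with limma 3.58.1 in R 4.3.3 (data.table, version 1.17.8), with 3 arrays per group limiting precision. The code was tested on simulated data with known changes. Of 5403 genes with several tested probes, 29 had probes called in opposite directions. Replicates were pools of mice, with spread between pools only.

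The comparison and 49 gene lists (1008 entries, 19 with no probe) were chosen with earlier results of these data known, as was the rule for named genes: gate genes, the 12 largest differences per direction, the 6 largest bounds per direction, and up to 4 called and 2 uncalled members per list. The 12 were taken among genes above background on all 6 arrays whose groups did not overlap. Genes named outside it, chosen after their values were seen, were Mki67, Cdk1, Ube2c, Mcm6, Pcna, Ccne2, Pfas, Ascl2, Dll1, Dll4, Spink4, Dclk1, Myo1a, Mogat2, Dgat1, Mttp, Hnf4a, Cdx1, Cdx2, Rfx5, Fos and Cd3e. The results of some genes are not reported here. Alternatives were other scalings (quantile, median), normexp (offset 50), the authors' values, other filters and thresholds, all 9 arrays, blocks for slide and replicate, averaging over probes, a trended prior, and each array left out. Figures used matplotlib 3.10.9 in Python 3.11.15 with pandas 2.3.3. Positions of probes (mm8, per the file headers) were not used, and promoter coordinates are those of RefSeq's GRCm38.p6.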

Additional observations from a re-analysis of the deposited data

How the results depend on the processing

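Against 7722 probes and 5457 genes called, normexp gave 3636 and 2858, slide as a block 1161 and 819, an adjusted p below 0.01 gave 3849 and 2745, and no minimum difference 11800 and 8281. Leaving out 1 array gave 4815 to 9543 probes and 3418 to 6773 genes, the fewest without MHCIIhi 1 and the most without MHCIIhi 3; the counts were 5011 and 3555 without MHCIIhi 2, 9169 and 6447 without MHCIIlo 1, 5289 and 3744 without MHCIIlo 2, and 5581 and 3938 without MHCIIlo 3. Without both MHCIIhi 3 and MHCIIlo 1, chosen after seeing the data, 10897 and 7701 were called. The other settings gave 5752 to 7939 probes. Of called genes 51.4% were higher, against 83.03% with the slide block, 67.8% at an adjusted p below 0.01, 62.96% without MHCIIhi 1 and 41.4% when only probes above background on all 6 arrays were tested. Of 305 genes named by the rule, 283 kept their side of the threshold with quantile normalization, 255 with normexp and 157 with the slide block. Signs reversed with normexp for Ptch1 (-0.41), Pax4 (-0.37), Tnfsf9 (-0.089), Cd276 (-0.34), Bik (-0.27) and Lama5 (-0.19), and with the slide block for Foxq1 (1.94); the cause was not tested. A replicate block gave 7990 probes and 5637 genes; deviations of same-numbered arrays correlated at 0.24, -0.42 and 0.30, so the numbers were not taken as a pairing. Weak signal, in MHCIIlo above all, limits folds of dim genes.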

Other observations

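Some genes outside the gene lists were among the largest differences. Cacna1s, a calcium channel subunit known from muscle, stood at -3.82, -4.51 and -3.20 in MHCIIhi and at -0.74, -0.12 and 0.38 in MHCIIlo (-3.68 ± 0.40, limma adjusted p = 0.00154). Bco2, which cleaves carotenoids, stood at -2.78, -3.10 and -1.75 against -0.18, 0.55 and 0.55 (-2.85 ± 0.39, limma adjusted p = 0.00282). Bex4 stood at 1.89, 1.34 and 0.45 against -2.46, -3.76 and -3.38 (4.43 ± 0.45, limma adjusted p = 0.00137), and the linker histone gene H1f5 at 3.95, 4.17 and 3.35 against 0.06, -0.61 and -0.71 (4.24 ± 0.30, limma adjusted p = 0.00108). These 4 genes were picked among genes whose groups did not overlap. That their groups lay apart, and that the sign held within the slide, thus follows from the choice.

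The secreted inhibitor gene Slpi stood at -5.19, -2.83 and -3.70 in MHCIIhi and at 0.57, 0.33 and 4.18 in MHCIIlo, a difference of -5.60 ± 1.07 (limma adjusted p = 0.00804) that was -4.36 without MHCIIlo 3. MHCIIlo 3 was the highest array for Slpi by several log2 units.

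A few genes set MHCIIhi 3 apart from MHCIIhi 1 and 2, given as a description since they were chosen for this. Foxq1, a forkhead factor, stood at 1.16, 0.38 and 4.82 against 3.11, 2.52 and 2.99 in MHCIIlo. Kat2a, a histone acetyltransferase, stood at -2.10, -2.24 and 2.11 against 0.80, -1.02 and -0.68. Slc25a29, a mitochondrial carrier, stood at -0.94, -1.13 and 2.88 against 1.62, 0.74 and 0.49. In each, MHCIIhi 3 was the highest of the 6 arrays.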
